A study of Homo sapiens with 12 samples.

Results

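The comparison described here sets the resistant mesothelioma line NCI-H226_CL3 against its parent line NCI-H226, both incubated with the vehicle DMSO. It uses the 3 libraries titled Resistant_DMSO and the 3 titled Sensitive_DMSO, 6 of the 12 RNA-seq libraries of the series, chosen by their titles. The resistant cells were derived from NF2-null NCI-H226 cells by bi-weekly steps of 0.1 to 0.5 µM of a small-molecule TEAD inhibitor, starting at 0.25 µM and ending at 3 µM. The sensitive cells are the parental line, labelled as sensitive to the TEAD inhibitor GNE-7883, so the loss of NF2 is shared by both groups. The other 6 libraries are of the same lines incubated with GNE-7883, 3 of each line, and are used beside the DMSO values in a few places. A single resistant line was profiled. Every difference below is therefore a difference between these 2 lines, and the selection for resistance cannot be told apart from other changes during the long culture. How long the cells were in DMSO, and whether the resistant line was kept in inhibitor until then, is not given in the sources used here.

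In the Hippo pathway, the kinases LATS1 and LATS2 phosphorylate the coactivators YAP and TAZ, which keeps them out of the nucleus. NF2, which encodes merlin, acts upstream of these kinases, and its loss, common in mesothelioma, leaves YAP and TAZ free to bind the TEAD transcription factors and to drive growth genes such as CCN1 and CCN2. The RAS-RAF-MEK-ERK cascade carries signals from receptor tyrosine kinases, and its output is read from genes that ERK induces, many of which encode feedback inhibitors such as the DUSP phosphatases and the Sprouty proteins. AP-1, a dimer of FOS and JUN family proteins, is induced by ERK and often binds the same enhancers as TEAD.

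Total counts were 42326002, 45178434 and 31878934 in the resistant and 44744884, 42822017 and 37728690 in the sensitive replicates 1, 2 and 3. A count of 0 allows up to 3 counts, which is 0.0649 to 0.0920 CPM (counts scaled to the library's adjusted total) in resistant and 0.0689 to 0.0821 CPM in sensitive libraries, for counting error only. Mitochondrial transcripts took 0.604 ± 0.0698% of counts in resistant and 0.556 ± 0.0568% in sensitive cells (SD, n = 3 each). Sensitive replicate 2 stood apart: against the other 2 sensitive libraries its counts gave a chi-square over degrees of freedom of 39.66 and 45.67. Between those other 2 the value was 3.33. Among resistant pairs it was 5.42 for replicates 1 and 3, and 9.02 and 11.38 for the pairs with replicate 2. NF2 had 0, 2 and 0 counts in resistant and 1, 4 and 0 in sensitive libraries, too few to test. The labels give the cell type as mesothelioma but the tissue as epithelium of the lung. The mesothelial genes MSLN, CALB2, WT1 and UPK3B were read in all 6 libraries, whereas the squamous gene TP63 stayed at or under 0.217 CPM, EPCAM at or under 0.0714 CPM and the lung gene NKX2-1 had no count. Other squamous, epithelial junction and lung genes were read. The squamous list summed to 419 to 442 CPM in resistant and 446 to 517 CPM in sensitive libraries. The epithelial junction list summed to 2369 to 2653 CPM in resistant and 4374 to 5274 CPM in sensitive libraries. The lung list summed to 3.01 to 4.01 CPM in resistant and 90.5 to 113 CPM in sensitive libraries.

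Nearly every second gene differed between the lines, most of them by small amounts. Of 18035 genes tested, 8775 were called (48.7%), which here means an adjusted p under 0.05 in edgeR's quasi-likelihood test with Benjamini-Hochberg adjustment. Of these, 4367 were higher (24.2%) and 4408 lower (24.4%) in resistant cells. Among them 4790 genes, or 54.6%, differed by less than 1.5-fold. Among the large differences, falls outnumbered rises: 787 genes were called and at least 2-fold higher (4.36%) and 1345 at least 2-fold lower (7.46%), 179 against 501 at 4-fold, and 25 against 107 at 16-fold. Protein-coding genes were called more often, at 56.0% of 13526, than genes of other biotypes, at 26.5% of 4509. The CPM of the 3 resistant and the 3 sensitive libraries did not overlap in 9717 of the 18035 genes (53.9%). The median log2 fold change of all genes was -0.002 and the median of its size was 0.30, so that the shares above are the background for every count below. The labels do not say whether replicate libraries came from separate cultures, and the p-values reflect no more than library-to-library spread, possibly technical. A lower level in such bulk libraries may reflect fewer cells or less RNA per cell, which cannot be told apart.

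**Figure D1:**
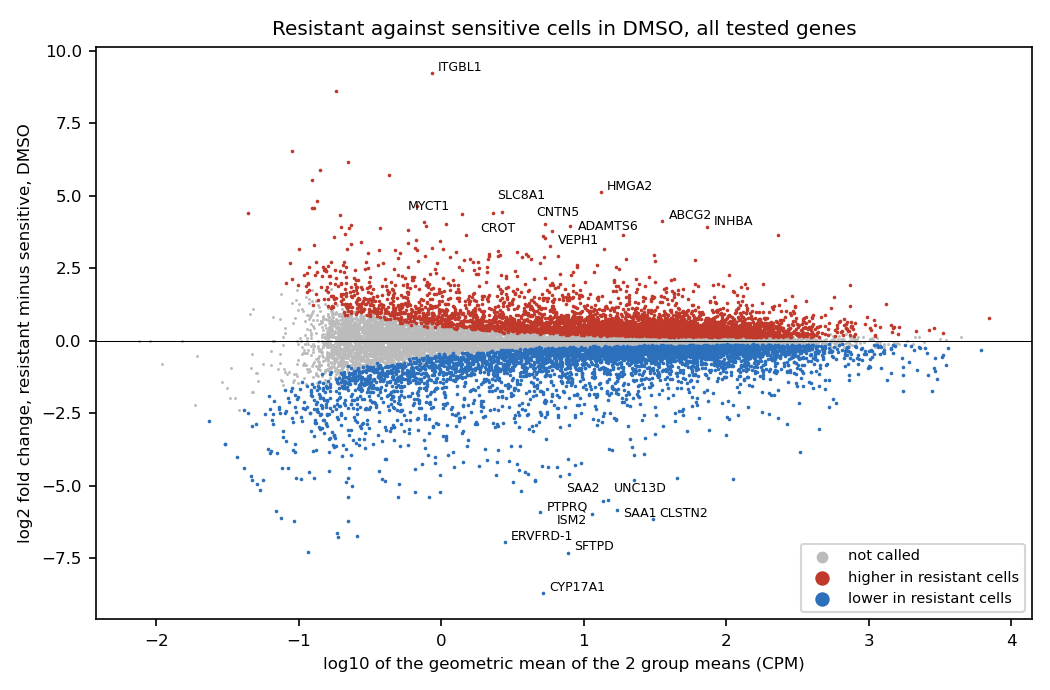
Each point is 1 of 17998 tested genes, at the log10 of the geometric mean of its 2 group means (CPM) and its log2 fold change (resistant minus sensitive cells, DMSO); 37 genes with no count in a whole group are left out. The 10 largest rises and 9 of the 10 largest falls (mean of 5 CPM or more in either line) are named, and the cloud below 0 reaches further down than the cloud above 0 reaches up, apart from ITGBL1.

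With a mean of 5 CPM or more required in either line, the largest rises included genes nearly silent in the parent. ITGBL1, which encodes a secreted protein with integrin-like EGF repeats (ENSG00000198542, chromosome 13, 101452593 to 101720856 on GRCh38), had 20.6, 22.5 and 21.9 CPM in resistant cells, against 0, 0.0476 and 0.0547 CPM in sensitive cells. That is 2653 counts against 4, so its log2 fold change of 9.24 ± 0.26 (standard error) depends on how near-zero counts are handled. HMGA2, an architectural chromatin protein of embryonic and tumour cells (ENSG00000149948, chromosome 12, 65824131 to 65966295), had 79.7, 74.1 and 80.0 CPM in resistant cells, against 2.44, 2.33 and 1.86 CPM in sensitive cells. The lines did not come near each other: the fold was 35.0 (log2 fold change 5.13 ± 0.087, adjusted p = 6.92e-16 in edgeR's quasi-likelihood test). INHBA, which encodes the subunit of activin A (ENSG00000122641, chromosome 7, 41667168 to 41705834), had 288, 283 and 289 CPM in resistant cells, against 18.5, 17.6 and 20.7 CPM in sensitive cells, a log2 fold change of 3.92 ± 0.064. ABCG2, a pump that exports many drugs (ENSG00000118777, chromosome 4, 88090264 to 88231322), had 154, 142 and 153 CPM in resistant cells, against 9.60, 7.64 and 8.16 CPM in sensitive cells, a log2 fold change of 4.14 ± 0.097. INHBA and ABCG2 were thus already read in the parent and stood 15.2-fold and 17.6-fold higher in the derived line. The other 6 genes of this set were SLC8A1, a sodium-calcium exchanger (4.46 ± 0.13), CROT, a peroxisomal acyltransferase (4.42 ± 0.18), MYCT1 (4.37 ± 0.17), the contactin CNTN5 (4.02 ± 0.10), the secreted metalloprotease ADAMTS6 (3.97 ± 0.12) and VEPH1 (3.78 ± 0.13). Their mean levels lay between 6.33 ± 0.117 against 0.305 ± 0.0892 CPM (resistant against sensitive) for MYCT1 and 31.7 ± 2.48 against 2.02 ± 0.170 CPM for ADAMTS6.

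The largest falls took genes from means of 5.26 to 256 CPM in sensitive cells down to 3.65 CPM or less in resistant cells. CYTL1, which encodes a small secreted protein (ENSG00000170891, chromosome 4, 5014586 to 5019472), had no count in any resistant library against 4.96, 5.85 and 4.95 CPM in sensitive cells, at least 215-fold lower when 3 counts over the group are taken as its floor. CYP17A1, a cytochrome P450 of steroid hormone synthesis (ENSG00000148795, chromosome 10, 102830531 to 102837533), had 0.206, 0.195 and 0.368 CPM in resistant cells, against 100.7, 107 and 102 CPM in sensitive cells, a log2 fold change of -8.70 ± 0.11. SFTPD, which encodes the surfactant collectin SP-D (ENSG00000133661, chromosome 10, 79937740 to 79982614), had 0.458, 0.801 and 0.583 CPM in resistant cells, against 87.4, 109 and 98.7 CPM in sensitive cells, a log2 fold change of -7.30 ± 0.15. In all 3 genes, chosen for their large falls in these libraries, the highest resistant library lay far below the lowest sensitive one. ERVFRD-1, an envelope gene of an endogenous retrovirus (-6.93 ± 0.12), ISM2 (-5.97 ± 0.087) and UNC13D, a protein of granule release (-5.48 ± 0.10), fell in the same range. The acute phase genes SAA1 (-5.85 ± 0.14) and SAA2 (-5.51 ± 0.13) fell together, but they are near-identical copies whose reads may be shared. CLSTN2 (-6.13 ± 0.18) and PTPRQ (-5.92 ± 0.23) fell as well, with the library that stands apart lowest in its group: CLSTN2 had 3.76, 3.51 and 3.68 CPM in resistant cells, against 285, 179 and 303 CPM in sensitive cells.

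**Figure D2:**
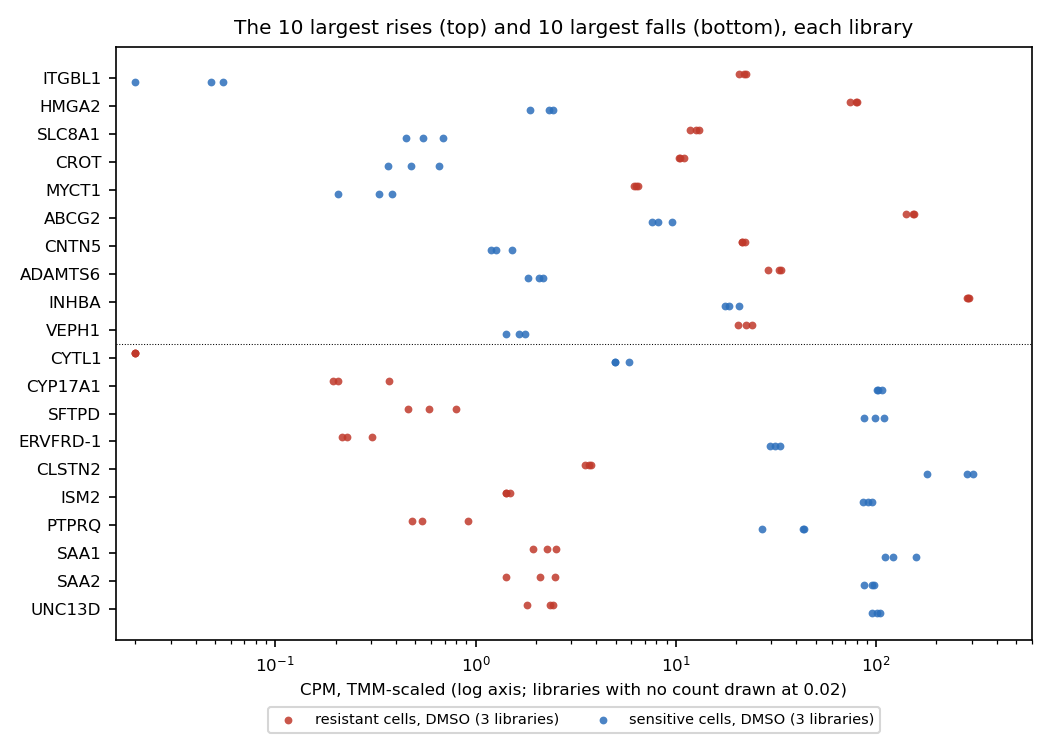
TMM-scaled CPM (log axis) in each of the 3 resistant (red) and 3 sensitive (blue) DMSO libraries for the 10 largest rises and the 10 largest falls (mean of 5 CPM or more in either line); a library with no count is drawn at 0.02. The 20 genes were chosen for large differences between these libraries, so the wide gap between the lines follows from the choice. Over all tested genes, the libraries of the 2 lines do not overlap in 53.9%. CLSTN2 and PTPRQ show 1 sensitive library below the other 2.

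A few genes were read in 1 line and next to absent in the other. With at most 3 counts in each sensitive library, 4 protein-coding genes had at least 1 CPM in resistant cells, and with at most 3 counts in each resistant library 10 had at least 1 CPM in sensitive cells. On the resistant side, ITGBL1 was followed by CYP2R1, a hydroxylase that activates vitamin D (3.18 ± 0.643 CPM in resistant cells and 0.0583 ± 0.0306 CPM in sensitive cells). Next was FGF14, with 239 counts against 3, a ratio of 79.5 (95% counting interval 26.9 to 388). FGF14 overlaps ITGBL1 on the opposite strand (chromosome 13, 101710804 to 102402457), and the library kit does not mark strand, so reads of the 2 genes cannot be told apart where they overlap. The potassium channel gene KCNQ3 had 129 counts against 1. Under 1 CPM came the lysosomal enzyme gene GALC, ZNF813, the cytokine IL33, the sodium channel gene SCN3A, ASTN1 and TTC29, at 0.904 ± 0.254 against 0.0559 ± 0.0247 CPM for GALC to 0.615 ± 0.0572 against 0.0509 ± 0.0297 CPM for TTC29 (resistant against sensitive). On the sensitive side, the adhesion gene DSCAML1 joined CYTL1 with no count in resistant cells (at least 122-fold lower). The mucin gene MUC16 had 3 counts against 351, but its sensitive libraries ranged widely, at 2.16, 1.26 and 5.58 CPM. The haptoglobin gene HP had 2 counts against 256 (sensitive over resistant ratio 128, interval 35.2 to 1065). SH3BGRL, the endocytic receptor gene LRP2, the anion transporter gene SLC26A9, the kinase gene LCK and TCIM were also in the set, with 0.0179 ± 0.0160 CPM in resistant cells and 1.91 ± 0.142 CPM in sensitive cells for SH3BGRL and 0.0472 ± 0.0172 CPM in resistant cells and 1.09 ± 0.257 CPM in sensitive cells for TCIM. CYP24A1, the enzyme that breaks vitamin D down, was far more abundant and moved against CYP2R1, with 87.6, 85.1 and 87.2 CPM in resistant cells, against 1297, 1063 and 1335 CPM in sensitive cells (-3.83 ± 0.079).

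Genes that YAP and TEAD are known to drive did not move one way. Of 25 tested, 11 rose and 10 fell (44% and 40%, against 24.2% and 24.4% of all genes), with a median log2 fold change of 0.06 beside -0.002 for all genes. CCN2, a secreted matricellular protein and a standard YAP target (ENSG00000118523, chromosome 6, 131948176 to 131951373), had 107, 98.8 and 100.6 CPM in resistant cells, against 64.1, 65.3 and 63.5 CPM in sensitive cells. Its groups did not overlap, which held for 53.9% of all tested genes. The log2 fold change of CCN2 was 0.67 ± 0.053 (adjusted p = 3.33e-08, edgeR quasi-likelihood test). CCN1, its relative, had 1431, 1395 and 1377 CPM in resistant cells, against 984, 1049 and 1007 CPM in sensitive cells (0.47 ± 0.045). THBS1, the matrix protein thrombospondin (31.8 ± 2.12 CPM in resistant cells and 17.5 ± 2.07 CPM in sensitive cells, 0.86 ± 0.085), GADD45A, a stress and growth arrest gene (1.06 ± 0.064), and ASAP1 (0.69 ± 0.097) rose too. ANKRD1, another widely used target (ENSG00000148677, chromosome 10, 90912096 to 90921276), went the other way with 5.59, 4.83 and 4.85 CPM in resistant cells, against 13.9, 13.7 and 12.3 CPM in sensitive cells (-1.38 ± 0.10). IGFBP3, which encodes a binding protein of insulin-like growth factors (483 ± 21.9 CPM in resistant cells and 1101 ± 8.18 CPM in sensitive cells, -1.19 ± 0.049), and the matrix gene CCDC80 (2075 ± 26.1 CPM in resistant cells and 3962 ± 155 CPM in sensitive cells, -0.93 ± 0.044) fell likewise. Within a single list, then, CCN2 rose and ANKRD1 fell by more than the spread of the libraries.

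The promoters of 3 of these genes are shown because they hold the same TEAD motif while their transcripts moved in different directions. The 250 bases before the gene start are from RefSeq on GRCh38.p14, in the direction of transcription. They are chr6:131951373-131951622 (minus strand) for CCN2, chr15:39580829-39581078 (plus strand) for THBS1 and chr10:90921088-90921337 (minus strand) for ANKRD1. Capitals mark the TEAD motif CATTCC, here in its reverse complement GGAATG, and in ANKRD1 also the AP-1 motif TGANTCA, where N is any base.
CCN2: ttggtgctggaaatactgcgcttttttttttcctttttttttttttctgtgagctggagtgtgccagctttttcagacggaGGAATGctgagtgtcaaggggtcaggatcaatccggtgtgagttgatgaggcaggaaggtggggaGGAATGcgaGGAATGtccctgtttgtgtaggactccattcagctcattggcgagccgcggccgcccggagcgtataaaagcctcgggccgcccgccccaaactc
THBS1: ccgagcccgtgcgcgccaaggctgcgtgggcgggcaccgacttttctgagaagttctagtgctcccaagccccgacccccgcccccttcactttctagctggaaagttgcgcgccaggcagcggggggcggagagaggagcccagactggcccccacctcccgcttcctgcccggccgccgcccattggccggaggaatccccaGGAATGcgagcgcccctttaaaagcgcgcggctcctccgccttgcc
ANKRD1: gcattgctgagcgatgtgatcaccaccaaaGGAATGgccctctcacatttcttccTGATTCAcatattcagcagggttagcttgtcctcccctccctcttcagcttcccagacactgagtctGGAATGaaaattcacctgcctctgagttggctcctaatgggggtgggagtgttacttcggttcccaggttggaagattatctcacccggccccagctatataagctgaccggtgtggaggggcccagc
The motif starts 169, 104 and 95 bases before the start of CCN2, 46 bases before that of THBS1, and 220 and 128 bases before that of ANKRD1. The RefSeq start of ANKRD1 lies inside the GENCODE span given above, as do most of its window and the motif at 128. On either strand, the TEAD motif was found in 10 of the 21 such windows of the 18 YAP/TEAD target genes that matched the table (47.6%), against 4175 of all 35116 promoters (11.9%). It was in 5 of the 23 promoters of the 14 matched genes of the 20 largest changes (those of ABCG2, ADAMTS6 and VEPH1) and in 1 of the 9 promoters of 6 matched MAPK activity genes (EPHA2). The AP-1 motif, which does not overlap the TEAD motif in ANKRD1, was in 2 of the 21 target promoters and in 2308 of all promoters (6.57%). A match describes these letters and is not a binding site.

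The Hippo pathway genes themselves were mixed. Of 24 tested, 6 rose and 8 fell (25.0% and 33.3%, against 24.2% and 24.4% of all genes), with a median of -0.04. YAP1 had 253, 248 and 269 CPM in resistant cells, against 222, 167 and 226 CPM in sensitive cells (0.33 ± 0.086), and WWTR1, which encodes TAZ, had 38.8, 38.6 and 41.5 CPM in resistant cells, against 51.4, 41.7 and 53.6 CPM in sensitive cells (-0.30 ± 0.077), so the 2 coactivators moved in opposite directions by small amounts. Of the 4 TEAD genes, only TEAD4 changed by a large amount, with 48.5, 56.0 and 47.3 CPM in resistant cells, against 84.3, 93.2 and 87.9 CPM in sensitive cells (-0.81 ± 0.071). TEAD1 had 386, 375 and 424 CPM in resistant cells, against 519, 305 and 547 CPM in sensitive cells. Its groups overlapped through sensitive replicate 2 (log2 fold change -0.21, adjusted p = 0.245), and without that library it was called lower (-0.43, adjusted p = 6.76e-07), as it was with no filter on low counts (-0.22, adjusted p = 0.00304). TEAD2 was called at 0.22 (adjusted p = 0.04, edgeR quasi-likelihood test), but not when either resistant replicate 1 (adjusted p = 0.108) or replicate 2 (0.105), or sensitive replicate 1 (0.0948) or 3 (0.117), was left out. TEAD3 differed by 0.10 (adjusted p = 0.209). By deposited RPKM, which corrects for gene length, TEAD1 was the most abundant TEAD gene in resistant cells at 43.7 RPKM, ahead of TEAD4 at 28.7, TEAD3 at 11.99 and TEAD2 at 5.58 RPKM. In sensitive cells TEAD1 was at 48.0 RPKM and TEAD4 at 47.8 RPKM. Among regulators, the angiomotin gene AMOTL1 rose (16.5 ± 0.444 CPM in resistant cells and 4.33 ± 1.40 CPM in sensitive cells, 1.93 ± 0.15) and its relative AMOT fell (-1.62 ± 0.23), while the upstream scaffold genes FRMD6 rose (804 ± 27.5 CPM in resistant cells and 371 ± 52.2 CPM in sensitive cells, 1.12 ± 0.078) and WWC1 fell (602 ± 15.3 CPM in resistant cells and 906 ± 25.5 CPM in sensitive cells, -0.59 ± 0.046).

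Genes that report ERK signalling were mostly higher in resistant cells. Of 10 MAPK activity genes, 8 rose and 0 fell, with a median of 1.64. DUSP6, a phosphatase that removes phosphate from ERK (ENSG00000139318, chromosome 12, 89347232 to 89353271), had 18.3, 16.7 and 19.6 CPM in resistant cells, against 1.52, 1.43 and 1.53 CPM in sensitive cells. That is 12.2-fold, with a log2 fold change of 3.604 ± 0.10 (adjusted p = 2.1e-13, edgeR quasi-likelihood test). DUSP4, which encodes a related phosphatase, had 63.0, 60.8 and 62.2 CPM in resistant cells, against 13.4, 13.7 and 13.0 CPM in sensitive cells (2.21 ± 0.066). The ETS factor genes ETV4 (39.0 ± 3.57 CPM in resistant cells and 10.55 ± 0.312 CPM in sensitive cells, 1.89 ± 0.088) and ETV5 (107 ± 3.23 CPM in resistant cells and 32.2 ± 1.34 CPM in sensitive cells, 1.73 ± 0.057), PHLDA1 (204 ± 7.15 CPM in resistant cells and 62.9 ± 2.76 CPM in sensitive cells, 1.70 ± 0.059) and the Sprouty gene SPRY2 (15.998 ± 0.596 CPM in resistant cells and 5.31 ± 0.578 CPM in sensitive cells, 1.59 ± 0.092) rose by 3- to 4-fold. The ephrin receptor genes EPHA2 (0.37 ± 0.073) and EPHA4 (0.29 ± 0.095) rose less, and the call of EPHA4 ended without resistant replicate 1 (adjusted p = 0.0788) or 3 (0.0782). SPRY4 at 0.16 (adjusted p = 0.0718) and the cyclin gene CCND1 at 0.11 (adjusted p = 0.182) did not pass the test, and the libraries of the 2 lines overlapped in both. SPRY4 passed without sensitive replicate 1, at 0.21 (adjusted p = 0.0323).

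Of 18 other ERK feedback and output genes, 16 rose and 1 fell, with a median of 0.93. HMGA2 led them, followed by the phosphatase gene DUSP10 (4.40 ± 0.333 CPM in resistant cells and 0.766 ± 0.127 CPM in sensitive cells, 2.52 ± 0.17) and FOSL1, the AP-1 subunit FRA1, with 180.2, 183 and 187 CPM in resistant cells, against 47.7, 52.7 and 47.2 CPM in sensitive cells (1.90 ± 0.071). The cytokine genes IL1A (1.63 ± 0.094), IL11 (1.11 ± 0.10) and LIF (0.95 ± 0.055), the immediate early gene EGR1 (0.95 ± 0.15) and the feedback genes SPRED1 (0.89 ± 0.077), SPRED2 (0.95 ± 0.082) and SPRED3 (0.65 ± 0.084) also rose. SPRY1 was the exception that fell (0.945 ± 0.113 CPM in resistant cells and 3.00 ± 0.679 CPM in sensitive cells, -1.67 ± 0.18), and MYC did not pass the test (0.12). Of 14 AP-1 subunit and partner genes, 7 rose and 2 fell: FOSL1, MAFF (1.24 ± 0.073), FOSB (1.21 ± 0.28), ATF3 (0.86 ± 0.068), MAFK, MAFG and JUN (0.45 ± 0.068) rose, and MAF (9.33 ± 0.635 CPM in resistant cells and 43.2 ± 1.06 CPM in sensitive cells, -2.21 ± 0.07) and FOSL2 (-0.36 ± 0.061) fell.

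**Figure D3:**
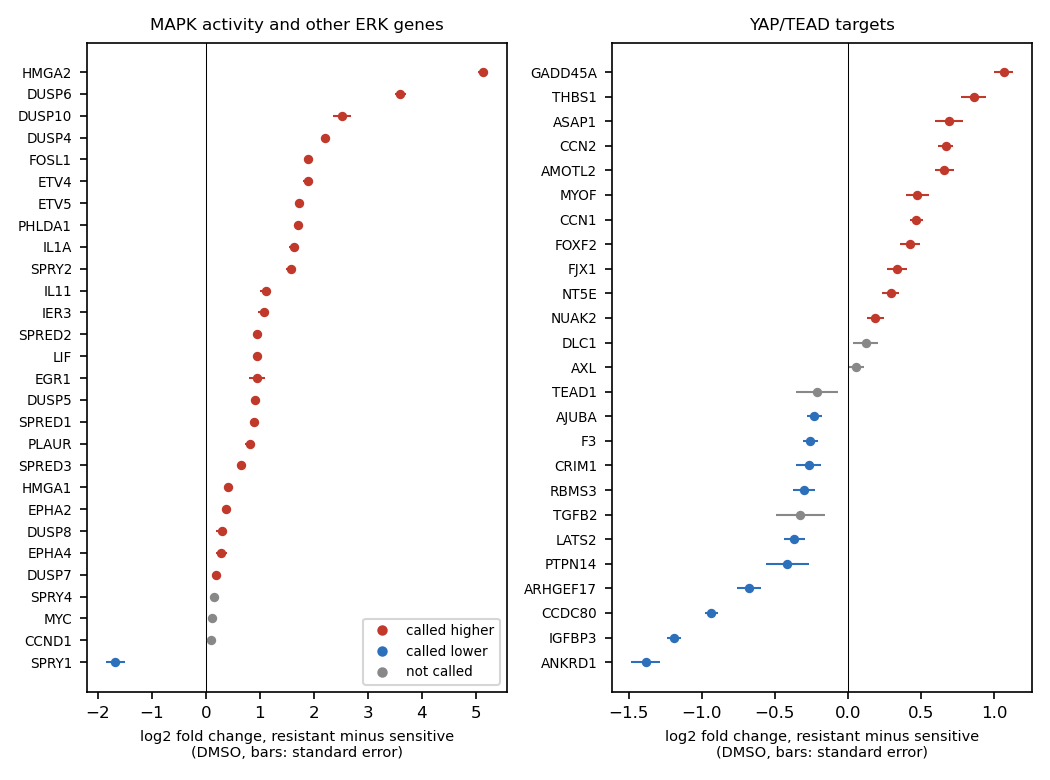
Log2 fold change (resistant minus sensitive cells, DMSO; bars are standard errors) of the 28 tested MAPK activity and other ERK genes (left) and the 25 YAP/TEAD targets (right), coloured by call. On the left 24 genes lie above 0 as called and SPRY1 alone is called lower, whereas on the right 11 called genes lie above 0 and 10 below it.

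The genes of the cascade itself showed small differences in both directions. Of 26 RAS, RAF, MEK and ERK core genes tested, 10 rose and 6 fell (38.5% and 23.1%, against 24.2% and 24.4% of all genes). Their median was 0.07, and none of them was 2-fold higher. Without resistant replicate 1 or without resistant replicate 3, 6 rose. MAPK3, which encodes ERK1, fell (-0.44 ± 0.067). RASA1, a GTPase-activating protein that switches RAS off, rose (0.98 ± 0.073), while MRAS (-1.10 ± 0.08), the scaffold gene KSR1 (-0.96 ± 0.079) and RASAL1 (-0.85 ± 0.19) fell. HRAS (-0.16), MAP2K2 (0.01) and NF1 (0.05) did not pass the test.

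Upstream, receptor genes were more often lower than higher, with EGFR and FLT1 among those that were higher. Of 28 receptor tyrosine kinase genes tested, 6 rose and 12 fell, 2 and 8 of them at least 2-fold. EGFR (ENSG00000146648, chromosome 7, 55019021 to 55211628) had 1054, 1068 and 1267 CPM in resistant cells, against 536, 347 and 577 CPM in sensitive cells. Each resistant library lay above each sensitive one, and the sensitive spread was set by replicate 2 (1.21 ± 0.13, adjusted p = 1.55e-06, edgeR quasi-likelihood test). FLT1, a receptor of VEGF, also rose (2.15 ± 0.27). IGF1R, the receptor of insulin-like growth factors, fell to 78.7, 84.9 and 87.9 CPM in resistant cells, against 501, 394 and 539 CPM in sensitive cells (-2.51 ± 0.098). PDGFRB (26.3 ± 1.18 CPM in resistant cells and 126 ± 5.63 CPM in sensitive cells, -2.26 ± 0.071), PDGFRA (-1.79 ± 0.21), FGFR2 (9.09 ± 0.184 CPM in resistant cells and 31.6 ± 3.13 CPM in sensitive cells, -1.80 ± 0.083), FGFR3 (-1.59 ± 0.12), KDR (-1.35 ± 0.085), ROR2 (-1.20 ± 0.079) and ERBB3 (-1.19 ± 0.07) fell, while MET (-0.06), AXL (0.06) and FGFR1 (-0.02) did not pass the test.

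Growth factor ligand genes were mostly higher. Of 25 tested, 14 rose and 6 fell, with a median of 0.64. Among ligands of the EGF receptor family, EPGN, epigen (4.48 ± 0.332 CPM in resistant cells and 0.260 ± 0.204 CPM in sensitive cells, 4.05 ± 0.27), NRG1, neuregulin (41.3 ± 2.63 CPM in resistant cells and 13.0 ± 0.819 CPM in sensitive cells, 1.67 ± 0.084), AREG, amphiregulin (1.04 ± 0.17), and TGFA (0.58 ± 0.075) rose. HBEGF (-0.28 ± 0.054) and NRG2 (-0.85 ± 0.15) fell. Among the fibroblast growth factors, FGF5 rose with 90.2, 84.7 and 95.2 CPM in resistant cells, against 22.6, 17.2 and 22.4 CPM in sensitive cells (2.12 ± 0.093), and FGF18 fell with 6.42, 7.17 and 7.09 CPM in resistant cells, against 101.03, 110.3 and 97.8 CPM in sensitive cells (-3.90 ± 0.08). VEGFC, a lymphatic growth factor, rose (33.8 ± 3.02 CPM in resistant cells and 9.65 ± 1.19 CPM in sensitive cells, 1.80 ± 0.092).

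Most markers of mesothelial cells were lower in resistant cells, and more mesenchymal genes were higher than lower. Of 18 mesothelial genes tested, 14 fell and 1 rose, with a median of -1.05. CALB2, which encodes calretinin, a diagnostic marker of mesothelioma (ENSG00000172137, chromosome 16, 71358713 to 71390438), had 279, 286 and 269 CPM in resistant cells, against 1067, 1245 and 1063 CPM in sensitive cells (-2.02 ± 0.061). Besides HP and MUC16, which count as mesothelial markers too, PRG4 (-2.33 ± 0.21), ITLN1 (-2.26 ± 0.12), LRRN4 (49.7 ± 3.24 CPM in resistant cells and 211 ± 14.004 CPM in sensitive cells, -2.08 ± 0.081), UPK3B (232 ± 35.0 CPM in resistant cells and 623 ± 92.0 CPM in sensitive cells, -1.42 ± 0.12), WT1 (-0.63 ± 0.049) and MSLN, mesothelin (-0.49 ± 0.11), fell as well. The simple keratins KRT8 (1146 ± 162 CPM in resistant cells and 2604 ± 348 CPM in sensitive cells, -1.18 ± 0.11), KRT18 (1729.6 ± 159.9 CPM in resistant cells and 3939 ± 419 CPM in sensitive cells, -1.19 ± 0.081) and KRT19 (-0.91 ± 0.089) fell by about the same factor. KRT5, which also counts as a squamous marker, alone was called higher (0.39 ± 0.065). Without resistant replicate 2, a second mesothelial gene was called higher too. The keratin genes remained among the most abundant transcripts of both lines, with KRT18 at 883 RPKM in resistant and 1911 RPKM in sensitive cells.

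Of 15 mesenchymal genes tested, 9 rose and 2 fell, with a median of 0.47. SNAI2, the transcription factor SLUG (ENSG00000019549, chromosome 8, 48917604 to 48921740), had 66.3, 62.7 and 70.5 CPM in resistant cells, against 5.42, 5.78 and 4.79 CPM in sensitive cells (3.64 ± 0.11). Fibronectin, FN1, had 80.7, 80.9 and 93.8 CPM in resistant cells, against 20.6, 15.4 and 23.6 CPM in sensitive cells (2.10 ± 0.12). The collagen cross-linking enzyme gene LOX (1449 ± 38.6 CPM in resistant cells and 380.1 ± 29.6 CPM in sensitive cells, 1.93 ± 0.057), TNC (13.5 ± 1.02 CPM in resistant cells and 4.46 ± 0.438 CPM in sensitive cells, 1.60 ± 0.095) and vimentin, VIM (2064 ± 38.4 CPM in resistant cells and 847 ± 89.1 CPM in sensitive cells, 1.28 ± 0.068), rose too, while SNAI1 (-0.98 ± 0.15) and SPARC (-0.31 ± 0.039) fell and CDH2 (0.13) did not pass the test. Among 9 epithelial junction genes tested, 2 rose and 5 fell. E-cadherin, CDH1, was low in both lines and fell (0.321, 0.0866 and 0.276 CPM in resistant cells, against 4.16, 2.64 and 3.89 CPM in sensitive cells; -3.99 ± 0.28), and occludin, OCLN, fell (11.2 ± 0.709 CPM in resistant cells and 37.9 ± 6.38 CPM in sensitive cells, -1.76 ± 0.10), while CLDN4 (0.47 ± 0.17) and CLDN1 (0.34 ± 0.063) rose, only 1 of them without resistant replicate 2 or 3. Of 9 squamous genes tested, 2 rose and 4 fell, TRIM29 (-2.63 ± 0.098) and KRT17 (-1.54 ± 0.23) among the falls; 1 rose without resistant replicate 1 or 2 or sensitive replicate 3.

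Matrix genes moved both ways. Of 17 collagen genes tested, every gene was called, 5 higher and 12 lower. COL3A1, a fibrillar collagen, had 0.252, 0.260 and 0.0614 CPM in resistant cells, against 5.01, 5.02 and 5.201 CPM in sensitive cells (-4.62 ± 0.22). COL5A2 (-2.17 ± 0.12) and COL6A1 (329 ± 49.3 CPM in resistant cells and 832 ± 69.6 CPM in sensitive cells, -1.34 ± 0.096) fell with it. COL4A6, a basement membrane collagen, had 40.9, 44.1 and 39.5 CPM in resistant cells, against 4.41, 4.76 and 4.54 CPM in sensitive cells (3.18 ± 0.071), and COL13A1 (3.07 ± 0.20), COL6A3 (1.86 ± 0.55), COL4A5 (1.34 ± 0.071) and COL8A1 (0.81 ± 0.08) rose too. Of 17 integrin genes, 8 rose and 5 fell, and without resistant replicate 1 only 4 rose. The collagen receptor subunits ITGA2 (48.2 ± 3.04 CPM in resistant cells and 12.5 ± 3.06 CPM in sensitive cells, 1.95 ± 0.13) and ITGA11 (1.84 ± 0.13) rose, and the laminin receptor subunits ITGB4 (849 ± 110.0 CPM in resistant cells and 2146 ± 60.9 CPM in sensitive cells, -1.34 ± 0.088) and ITGA7 (-1.88 ± 0.097) fell. Of 21 metalloprotease and inhibitor genes, 12 rose and 4 fell, with a median of 0.59. ADAMTS1 (359 ± 16.6 CPM in resistant cells and 92.5 ± 7.89 CPM in sensitive cells, 1.96 ± 0.071), MMP10 (1.79 ± 0.44), ADAMTS5 (1.71 ± 0.12) and MMP2 (1.57 ± 0.083) rose most and MMP28 (-2.24 ± 0.22) fell most.

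TGF-beta and activin genes moved both ways. Of 19 tested, 5 rose and 9 fell (26.3% and 47.4%, against 24.2% and 24.4% of all genes), 7 of the falls at least 2-fold. INHBA and FST, the activin antagonist follistatin (11.2 ± 0.548 CPM in resistant cells and 1.46 ± 0.0531 CPM in sensitive cells, 2.94 ± 0.12), rose. The BMP-responsive genes ID1, ID2 and ID3 fell: ID1 had 19.5, 23.9 and 19.6 CPM in resistant cells, against 104, 135 and 98.9 CPM in sensitive cells (-2.43 ± 0.11), ID2 differed by -1.59 ± 0.077 and ID3 by -1.61 ± 0.10. The inhibitory SMAD gene SMAD6 (-2.91 ± 0.21) and the ligand gene BMP4 (30.6 ± 1.77 CPM in resistant cells and 96.4 ± 4.24 CPM in sensitive cells, -1.65 ± 0.064) fell with them.

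Most antigen presentation genes were lower, whereas interferon and cytokine genes were mixed. Of 15 MHC class I genes tested, 12 fell and 1 rose, with a median of -0.60. NLRC5, the activator of class I genes, had 17.8, 18.5 and 17.4 CPM in resistant cells, against 51.6, 47.7 and 53.6 CPM in sensitive cells (-1.51 ± 0.067). HLA-B (340.4 ± 28.99 CPM in resistant cells and 611 ± 85.1 CPM in sensitive cells, -0.84 ± 0.085), the immunoproteasome gene PSMB9 (-0.92 ± 0.08) and B2M, the invariant chain of class I molecules (1397 ± 63.9 CPM in resistant cells and 2088 ± 192 CPM in sensitive cells, -0.58 ± 0.067), fell, and ERAP2 rose (0.83 ± 0.071). Reads of the HLA genes map to similar and variable copies, so their counts are uncertain. Of 27 interferon-stimulated genes, 7 rose and 7 fell, with a median of -0.01. At 25.9% each way, this was near the 24.2% and 24.4% of all genes called higher and lower. RSAD2 (1.20 ± 0.099) and IFIT3 (1.18 ± 0.11) rose, and IFI6 (-1.38 ± 0.21) and IRF9 (-1.30 ± 0.40) fell. Of 20 NF-kB cytokine and chemokine genes, 6 rose and 8 fell (30.0% and 40.0%, against 24.2% and 24.4% of all genes). IL1B, the interleukin that starts fever and inflammation, had 242, 215 and 227 CPM in resistant cells, against 48.1, 50.4 and 43.9 CPM in sensitive cells (2.27 ± 0.069), and IL6 had 3.85, 3.70 and 3.13 CPM in resistant cells, against 20.7, 22.9 and 20.4 CPM in sensitive cells (-2.57 ± 0.11), so these 2 cytokines moved in opposite directions. The adhesion molecule gene ICAM1 (199.7 ± 12.9 CPM in resistant cells and 589 ± 7.61 CPM in sensitive cells, -1.56 ± 0.06) and the chemokine genes CXCL5 (-2.29 ± 0.57) and CXCL1 (-1.87 ± 0.14) fell, and CXCL3 rose (1.37 ± 0.18).

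Lipid synthesis genes were lower as a group, by small amounts. Of 27 cholesterol and fatty acid synthesis genes, 22 fell and 0 rose, with a median of -0.34 and no gene 2-fold lower. FADS2, a fatty acid desaturase, had 254, 265 and 248 CPM in resistant cells, against 452, 469.8 and 439 CPM in sensitive cells (-0.83 ± 0.057), and LSS (-0.65 ± 0.068) and MSMO1 (-0.63 ± 0.057), enzymes of cholesterol synthesis, fell too. Amino acid stress genes were mostly higher. Of 25 genes of the ATF4 response, 17 rose and 4 fell, with a median of 0.42. ASNS, asparagine synthetase (2.23 ± 0.38), CHAC1 (1.69 ± 0.11), the amino acid transporters SLC1A4 (1.47 ± 0.077) and SLC7A11 (132 ± 7.86 CPM in resistant cells and 51.9 ± 12.1 CPM in sensitive cells, 1.35 ± 0.12), and PSAT1, an enzyme of serine synthesis (124 ± 3.67 CPM in resistant cells and 47.7 ± 0.889 CPM in sensitive cells, 1.38 ± 0.065), rose, and CEBPB (-0.72 ± 0.08) and PHGDH (-0.46 ± 0.074) fell.

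Of 21 p53 genes, 16 rose and 1 fell, with a median of 0.34 and no change of 2-fold. SESN2 (0.84 ± 0.062), BBC3, the pro-apoptotic gene PUMA (0.64 ± 0.15), FAS (0.62 ± 0.061) and AEN (0.61 ± 0.062) were among the largest rises, and CDKN1A, which encodes p21, rose by 0.34 ± 0.055. Of 18 NRF2 and glutathione genes, 10 fell and 5 rose. The aldo-keto reductase genes AKR1C1 (-3.31 ± 0.57) and AKR1C3 (-2.30 ± 0.27), which are close copies, and NQO1 (201 ± 5.84 CPM in resistant cells and 436 ± 37.9 CPM in sensitive cells, -1.12 ± 0.06) fell, and SLC7A11, HMOX1 (0.53 ± 0.079) and TXNRD1 (0.45 ± 0.053) rose. Among 16 tested genes of drug export and breakdown there were 6 rises and 9 falls. The efflux pumps ABCG2 and ABCB1 (2.37 ± 0.50) rose, and ABCC3 (-1.39 ± 0.081) and CYP24A1 fell.

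Cell cycle genes differed little between the lines in DMSO. Of 28 mitosis genes, 9 rose and 3 fell, with a median of 0.07 and no change of 2-fold. Without resistant replicate 3, 4 of them rose. NUF2 (0.50 ± 0.082) and CENPF (0.33 ± 0.13) were the largest rises, and the call of CENPF ended without resistant replicate 2 (adjusted p = 0.0549) or 3 (0.261) or sensitive replicate 2 (0.106). Of 30 DNA replication genes, 12 rose and 6 fell, with a median of 0.09. CCNE2, cyclin E2, rose (11.96 ± 0.588 CPM in resistant cells and 5.80 ± 0.780 CPM in sensitive cells, 1.04 ± 0.10), as did CDC45 (0.62 ± 0.081), and MCM2 fell (-0.45 ± 0.059). Of 12 CDK inhibitor and D cyclin genes, 5 rose and 3 fell, and 8 rose without sensitive replicate 2. CCND2 (0.92 ± 0.061) rose, and CDKN1C (-1.04 ± 0.16) and CDKN2B (-0.79 ± 0.058) fell; CDKN2A had 0 to 3 counts in resistant and 0 to 5 counts in sensitive libraries. The BCL-2 family, with 17 genes tested, had 7 rises and 4 falls. The survival genes BCL2A1 (1.78 ± 0.28) and BCL2 (1.54 ± 0.16) rose. The death-promoting genes BMF (-1.53 ± 0.30), BIK (-0.82 ± 0.18), HRK (-0.78 ± 0.11) and BCL2L11, which encodes BIM (6.07 ± 0.503 CPM in resistant cells and 10.3 ± 1.64 CPM in sensitive cells, -0.76 ± 0.12), fell, while BNIP3 (1.24 ± 0.13), BBC3 and PMAIP1 (0.45 ± 0.067), also death-promoting, rose.

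Of 28 Wnt and Notch genes, 6 rose and 13 fell, 8 of the falls at least 2-fold. WNT10A had 0.710, 0.758 and 0.982 CPM in resistant cells, against 17.3, 21.3 and 17.2 CPM in sensitive cells (-4.53 ± 0.13), and WNT2B had 26.2, 26.0 and 26.5 CPM in resistant cells, against 239.6, 189 and 231 CPM in sensitive cells (-3.07 ± 0.087). The receptor gene FZD7 (-2.37 ± 0.13), the feedback gene AXIN2 (-1.63 ± 0.15) and NOTCH3 (-1.45 ± 0.12) fell. DKK1, a secreted Wnt antagonist, rose (264 ± 2.68 CPM in resistant cells and 75.0 ± 4.004 CPM in sensitive cells, 1.82 ± 0.056). Markers of blood cells and of lung epithelium were mostly at or near 0, apart from SFTPD. Of 16 blood cell markers, 5 passed the filter and 3 of these fell, CD3E, MS4A1, TYROBP and CD68 had no count in the 6 libraries, and the summed level of the list was 1.52 to 1.87 CPM in resistant and 3.49 to 4.71 CPM in sensitive libraries. Of 12 alveolar and airway markers, 4 were tested and SFTPD alone was called (2 were lower without resistant replicate 3); SFTPA1 and NKX2-1 had no count, and the sum of 3.01 to 4.01 CPM in resistant against 90.5 to 113 CPM in sensitive libraries was mainly SFTPD only in the sensitive libraries.

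**Figure D4:**
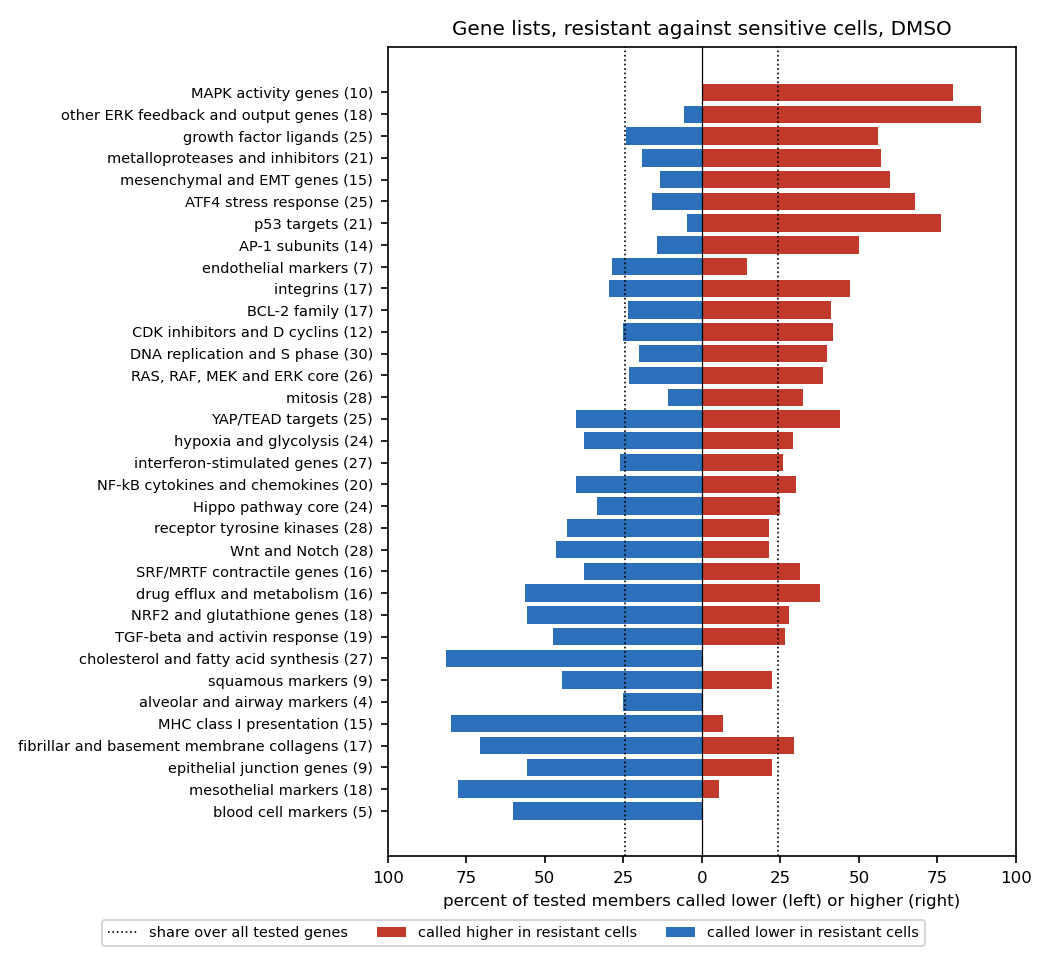
For each of the 34 gene lists, bars give the percent of tested members (number in brackets) called higher in resistant cells (red, right) or lower (blue, left) in DMSO; dotted lines mark the shares over all tested genes, 24.2% higher and 24.4% lower. Lists run from the highest median log2 fold change at the top to the lowest, with MAPK activity genes at 80% and 0% first and cholesterol and fatty acid synthesis genes at 0% and 81.5% in the lower part.

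Calls were not spread evenly over the genome. On chromosome 22, 213 of 422 tested genes were higher (50.5%) and 35 lower (8.29%), with a median log2 fold change of 0.33. Chromosomes 13 (41.5% higher, 13.9% lower, median 0.20), 7 (41.1%, 14.3%, 0.21) and 9 (36.5%, 18.2%, 0.14) leaned the same way. Chromosomes 21 (18.8% higher, 32.8% lower, median -0.16), 6 (18.6%, 33.0%, -0.13), 3 (18.0%, 35.4%, -0.12) and 17 (15.5%, 32.5%, -0.11) were among those that leaned the other way. The genome was then read in 277 windows of 10 Mb with at least 20 tested genes. From the 5th to the 95th percentile their medians ran from -0.22 to 0.30, 15 windows lay above 0.3 and 5 below -0.3.

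The highest window was on chromosome 7 from 50000001 to 60000000, around EGFR, with a median of 0.65 over 26 genes, of which 15 rose and 2 fell. The most abundant protein-coding genes beside EGFR rose by similar amounts: the chaperonin gene CCT6A (344 ± 7.09 CPM in resistant cells and 197 ± 6.68 CPM in sensitive cells, 0.81 ± 0.05), SUMF2 (0.84 ± 0.059) and the adaptor gene GRB10 (0.99 ± 0.058). Next came chromosome 10 from 10000001 to 20000000, with a median of 0.50 over 54 genes, holding VIM and FAM107B (1.16 ± 0.06), which rose, PLXDC2 (-0.41 ± 0.072), which fell, and STAM (-0.06), which did not pass the test but was called lower without sensitive replicate 2 (-0.16, adjusted p = 0.00501). On chromosome 13 from 50000001 to 60000000 the median was 0.43 over 27 genes; CKAP2 (0.51 ± 0.06), DIAPH3 (0.51 ± 0.066) and THSD1 (0.50 ± 0.054) rose and ATP7B fell (-0.45 ± 0.064). The lowest window was the last of chromosome 21, from 40000001, with a median of -0.40 over 71 genes, of which 4 rose and 35 fell, COL6A1, PTTG1IP (-0.50 ± 0.042) and PFKL (-0.53 ± 0.093) among them, while SUMO3 (0.08) did not pass the test but was called higher without sensitive replicate 2 (0.13, adjusted p = 0.0139). On chromosome 17 from 70000001 to 80000000 the median was -0.35 over 118 genes, with ITGB4, SEPTIN9 (-0.35 ± 0.076) and LGALS3BP (-0.45 ± 0.078) lower and TIMP2 (-0.07) not called, except without sensitive replicate 2 (-0.09, adjusted p = 0.0428). On chromosome 6 from 40000001 to 50000000 the median was -0.32 over 88 genes, with HSP90AB1 (-0.25 ± 0.046), PTK7 (-0.69 ± 0.059), XPO5 (-0.52 ± 0.053) and CD2AP (-0.28 ± 0.085) lower; the call of CD2AP ended without sensitive replicate 1 (adjusted p = 0.0684) or 3 (0.0744). With a filter of 5 CPM the medians on chromosomes 21 and 17 were -0.26 and -0.21. In the libraries incubated with GNE-7883 the same 6 windows, in this order, had medians of 0.66, 0.71, 0.30, -0.48, -0.36 and -0.38. DNA copy number was not measured, and its part in these medians was not tested.

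**Figure D5:**
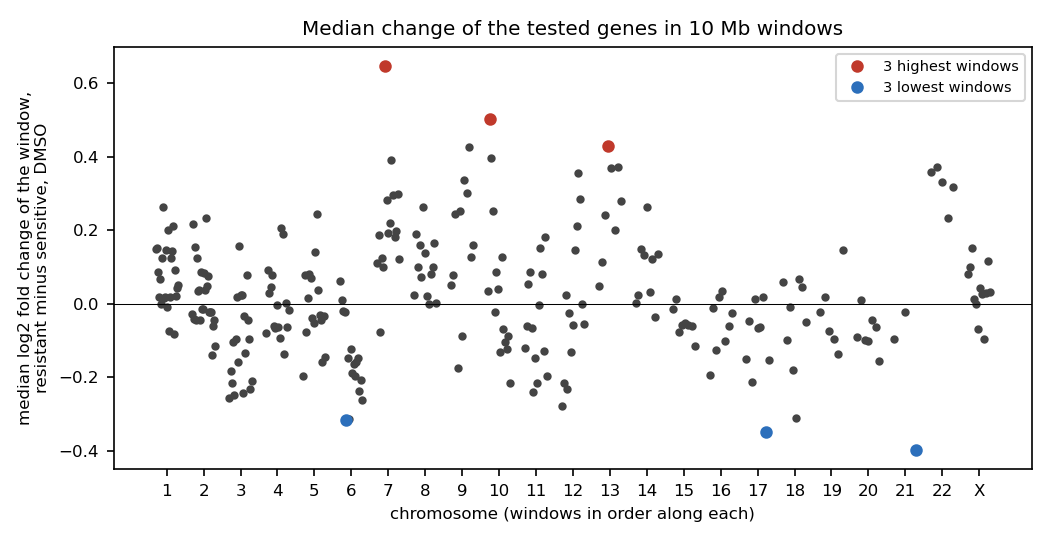
Median log2 fold change (resistant minus sensitive cells, DMSO) of the tested genes in each of 277 windows of 10 Mb, in order along each chromosome, with the 3 highest windows in red and the 3 lowest in blue. All windows of chromosomes 13 and 22 and nearly all of chromosome 7 lie above 0, and the single highest point is the chromosome 7 window around EGFR at 0.65.

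The same contrast of the lines was made in the 6 libraries incubated with GNE-7883, which share no library with the DMSO comparison. There, 61.9% of genes were called, 5544 higher (30.7%) and 5615 lower (31.1%) in resistant cells. Of the 4367 genes higher in DMSO, 3053 were also higher in GNE-7883, which is 69.9% of these and 55.1% of the 5544; 275 (6.30%) were lower. Of the 4408 genes lower in DMSO, 3112 were lower in GNE-7883 too, 70.6% of these and 55.4% of the 5615, and 362 (8.21%) were higher. All 20 genes of the largest changes had the same direction with the inhibitor. Of the 192 tested genes that the naming rule given below selects, 176 had the same sign in both. For 116 of the 192 the line difference itself differed between DMSO and GNE-7883 (edgeR interaction contrast, adjusted p under 0.05, against 35.7% of all genes). Most of the 192 were picked for large differences in DMSO, so their counts are not like for like with shares over all genes. The share of all genes with the same sign was not computed.

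Most YAP/TEAD targets were called in that contrast, nearly all in 1 direction. With GNE-7883, 20 of the 25 were higher in resistant cells and 4 lower, and in 19 the line difference in DMSO was lower than in GNE-7883, in 1 higher (16.7% and 19% of all genes were called higher and lower in that contrast). With the inhibitor, CCN2 had 69.3 ± 1.61 CPM in resistant and 8.49 ± 0.299 CPM in sensitive cells, a log2 fold change between the lines of 3.03 ± 0.061. ANKRD1, lower in resistant cells in DMSO, was higher in them with GNE-7883, with 3.06 ± 0.299 CPM in resistant and 2.19 ± 0.287 CPM in sensitive cells (0.48 ± 0.13, interaction -1.86 ± 0.16, adjusted p = 3.77e-07). IGFBP3 turned likewise (0.89 ± 0.049 with GNE-7883). The 28 mitosis genes, of which 9 rose in DMSO, were all higher in resistant cells with GNE-7883, and of the 30 DNA replication genes 29 were. For all 28 mitosis and 29 replication genes the difference was smaller in DMSO. Cholesterol and fatty acid genes, 22 of which fell in DMSO, were 13 higher and 9 lower with GNE-7883, and 16 differed between the 2 conditions. Of the MAPK activity genes 9 were higher and 1, SPRY4, lower with GNE-7883 (-0.87 ± 0.067). In the interaction contrast the line difference was higher in DMSO for 3 of the 10 and lower for 4. The line difference of DUSP6 was larger in DMSO than with GNE-7883 (1.82 ± 0.086 with the inhibitor, interaction 1.78 ± 0.14, adjusted p = 1.05e-07), while that of HMGA2 was 5.09 ± 0.089 with the inhibitor (interaction 0.04 ± 0.13, adjusted p = 0.893).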

How the data were processed

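RNA-seq was measured with the TruSeq RNA kit v2 (not strand-marking), as single-end 50-base reads, per the labels. The authors deposited whole-number read counts per Ensembl gene, not normalized, and RPKM values of the same libraries. In a check on 12122 genes (minimum 50 counts) the deposited RPKM equalled counts scaled by gene and library totals. GSNAP (2013-10-10), limma and GRCh38.p10 are named per the submitters' processing notes; the counting tool is not given in the sources used here. Symbols and positions came from GENCODE on GRCh38 (58039 of 58302 identifiers matched). From the counts, edgeR 4.0.16 (R 4.3.3) was run with TMM scaling, filterByExpr (18035 genes kept) and quasi-likelihood fits over all 12 libraries, with 1 mean per group, 8 residual degrees of freedom and Benjamini-Hochberg adjustment. Errors of log2 fold changes are standard errors, and CPM are TMM-scaled. Counts were also simulated with the groups equal apart from 50 genes each changed 1.25-, 1.5-, 2- and 4-fold. Of these, 20%, 70%, 78% and 98% were called, and 9 unchanged genes. In the real data 8775 genes were called (48.7%), so these shares and the 9 calls do not carry over. Genes named are the 10 largest changes per direction with at least 5 CPM in a group, the up to 4 largest called members of each list with at least 5 CPM, Hippo and MAPK genes whatever their values, switch genes and genes of extreme windows; further members were named after their values were seen, and some genes that the rule selects are not reported here. The gene lists and the comparison were chosen with earlier results of these data known, so no list is independent support. The alternatives tried were DESeq2 (1.42.0) and its size factors, other filters, the 6 DMSO libraries alone, the replicate number as block and leaving out each of the 6 DMSO libraries in turn.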

Additional observations from a re-analysis of the deposited data

Results flagged for a closer look

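For 12 of the 20 largest changes, the line difference itself differed between DMSO and GNE-7883 (edgeR interaction contrast, Benjamini-Hochberg over all genes). The same contrast was called for 35.7% of all genes. The 20 were picked for large differences in DMSO, so their count is not like for like with that share. Differences below are the log2 line difference in DMSO minus that in GNE-7883. It was larger in DMSO for ITGBL1 (2.33, adjusted p = 0.0235), which has almost no counts in sensitive cells, and for CROT (0.99, adjusted p = 0.00971). Among the genes lower in resistant cells, UNC13D also fell further in DMSO (-0.64, adjusted p = 0.0044). Among the rises, the difference was smaller in DMSO for ADAMTS6 (-3.01, adjusted p = 1.36e-06), INHBA (-1.25, adjusted p = 3.33e-08) and ABCG2 (-0.47, adjusted p = 0.0113). Among the falls it was smaller in DMSO for ISM2 (1.71, adjusted p = 8.1e-08), CYP17A1 (1.68, adjusted p = 0.000156), SFTPD (1.61, adjusted p = 0.000225), SAA2 (1.41, adjusted p = 2.45e-05), ERVFRD-1 (0.96, adjusted p = 0.0157) and SAA1 (0.74, adjusted p = 0.00925). All 12 genes had the same direction between the lines in both conditions.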

How the results depend on the processing

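Under the 12 alternatives, the genes called higher in resistant cells in DMSO numbered 3390 to 4633 (4367 in the main analysis) and those called lower 3349 to 4596 (4408), in each case within 1.5 times. Leaving out 1 DMSO library gave 3715 to 4633 and 3954 to 4426. With a filter of 5 CPM there were 3390 and 3349, with the 6 DMSO libraries alone 3578 and 3961, with DESeq2 4257 and 4332, and with the replicate number as a block 4286 and 4308. No call was reversed under any of these. Replicate numbers paired the libraries at most in part: deviations of same-numbered resistant and sensitive DMSO libraries correlated at -0.003, 0.18 and 0.09. Resistant replicates 1 and 3 correlated best with other numbers. The replicates numbered 2 correlated best with each other, and at -0.159 to -0.016 with the other numbers. A cause shared by the replicates numbered 2 was not tested. Under the block TEAD2 lost its call (adjusted p = 0.0584). For the genes that the naming rule selects, 2258 alternative values stayed on the same side of the threshold and 31 did not. Of the 31, 25 lost and 6 gained the call. CENPF, CDK6, S100A2, TEAD2, EPHA4 and CD2AP lost it, and the cause was not tested. Members named after their values were seen are outside these counts, and CDK6 and S100A2 are not described above. Some list counts moved by over 1.5 times. With the 5 CPM filter, which tests fewer genes, 2 BCL-2 genes (4 in the main analysis), 2 squamous (4), 1 mesenchymal (2), 1 blood (3) and 1 endothelial gene (2) were lower, and 3 collagens (5), 7 metalloproteases (12), 3 NF-kB genes (6), 2 efflux genes (6) and 1 junction gene (2) higher. With the 6 libraries alone, 6 RAS core genes (10), 4 mitosis genes (9), 1 squamous (2) and 1 junction gene (2) were higher. DESeq2 called 1 junction gene (2) and 2 endothelial genes (1) higher, as did no filter for the endothelial genes. Depth limits the switch genes and the blood and lung markers, most of which had few counts. Of the 14 squamous markers, 9 passed the filter and the others had few counts.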

Other observations

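Genes of hypoxia, glycolysis and contractility, not described above, moved both ways in DMSO. The 24 genes of hypoxia and glycolysis had 7 rises and 9 falls (29.2% and 37.5%, against 24.2% and 24.4% of all genes). CA9, a carbonic anhydrase induced by low oxygen, had 6.35, 7.41 and 6.04 CPM in resistant cells, against 37.6, 49.5 and 42.0 CPM in sensitive cells (-2.70 ± 0.10), and the glucose transporter gene SLC2A3 (-1.85 ± 0.082) and ALDOC (-1.82 ± 0.082) fell, whereas the glucose transporter gene SLC2A1 (1.05 ± 0.055) and the oxygen sensor gene EGLN3 (1.59 ± 0.18) rose. Of 16 SRF/MRTF contractile genes, 5 rose and 6 fell (31.25% and 37.5%, against the same shares of all genes). TAGLN (-1.10 ± 0.075) and MYL9 (-1.12 ± 0.083) fell and the focal adhesion gene VCL (0.90 ± 0.06) rose. Of 10 endothelial markers, 7 were tested: TIE1 (0.85 ± 0.077) rose and VWF (-1.40 ± 0.20) and KDR fell, and 2 rose without resistant replicate 1 or sensitive replicate 2. The summed level of the endothelial list was 109 to 128 CPM in resistant and 115 to 118 CPM in sensitive libraries.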
